A study of Zea mays with 10 samples.

Results

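Abundant RNAs of maize root tip nuclei that made up a smaller part of newly made RNA than of total nuclear RNA are described here. They were 123 of the 48174 genes listed, and 5653 genes were abundant enough to be considered, with a mean of at least 50 counts per 1000000 counts of the library (CPM) over the 10 libraries. A gene was a member if its mean CPM was at least 2-fold lower in newly made RNA, measured as R, the log2 ratio of the group means after 0.5 CPM was added to each (R of at most -1), and if every library of newly made RNA lay below every library of total nuclear RNA. Those thresholds were met by 132 genes, of which 9 on a fixed list of 14 genes were left out by the rule. With library sizes scaled by edgeR's TMM factors in place of totals, 185 genes met the rule. The members were chosen on the difference between the groups, so their differences are given below as a description, and counts of edgeR's calls among them follow from that choice.

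The tissue was the last 1 mm of the primary and the seminal roots of the inbred line B73, taken 3 days after germination at 28 C. Seedlings spent 1 h in water and 1 h in 175 uM 5-ethynyl uridine (EU), a uridine analog that is built into RNA as it is made and to which biotin can be attached. The 5 EU nascent libraries held nuclear RNA captured on streptavidin through that tag, and the 5 nuclear libraries held total nuclear RNA of equally labelled tips without the capture. Both groups thus carry the label, both come from all cell types of the tip, and both were depleted of ribosomal RNA, so ribosomal RNA levels reflect that step too. Totals were 2391209 to 5770915 counts in EU nascent libraries and 1323450 to 20397606 in nuclear libraries. EU nascent replicate 1 stood apart in small RNA genes, and the results that it moved most are given with and without it. SCR is a gene of the root endodermis and quiescent centre. In the tip, SCR had 24.3 ± 6.04 CPM in EU nascent and 25.7 ± 2.42 CPM in nuclear libraries (SD, n = 5 each). Another gene of the quiescent centre, wox5B, had only 1.40 CPM in EU nascent and 0.768 CPM in nuclear libraries. The root hair gene rth3 had 48.0 CPM in EU nascent and 34.3 CPM in nuclear libraries. The DNA replication genes pcna1 and pcna2 had 49.1 and 43.7 CPM in EU nascent and 35.6 and 47.5 CPM in nuclear libraries. The genes of green tissue were at or near 0. The light-harvesting genes lhcb4 and cab-m1 had no count in any library, lhcb6 had 0 CPM in EU nascent and 0.0677 CPM in nuclear libraries, and rbcs1 had 0.0352 CPM in EU nascent and 0.00981 CPM in nuclear libraries.

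How much of an RNA is found in nuclei depends on how fast it is made, processed, exported and broken down. The capture, in contrast, is meant to keep RNA made while the label was present. No library of unlabelled tips is among the samples, so RNA that is captured without the label was not measured. Small nuclear RNAs are the RNA parts of the spliceosome, and small nucleolar RNAs guide the chemical modification of ribosomal and other RNAs. Both work in the nucleus as finished, stable RNAs, while messenger RNAs are exported to the cytoplasm. CPM values are shares of a library, so a lower value does not by itself mean fewer molecules, and fewer cells of a type cannot be told apart from less RNA per cell.

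The members fell into a large, moderate group of protein-coding genes and a smaller group of small RNA genes with larger median differences, while the lowest single R values came from several classes. There were 66 protein-coding genes, 20 small nucleolar RNA genes, 19 long noncoding RNA genes, 11 small nuclear RNA genes, 4 pseudogenes, 2 transcribed pseudogenes and 1 ribosomal RNA gene. Protein-coding genes were 53.7% of members against 92.1% of all genes of at least 50 CPM, and 1.27% of the abundant protein-coding genes were members. The share of the class that belonged to the members was 51.3% for small nucleolar RNA genes (20 of 39), 26.2% for small nuclear RNA genes (11 of 42) and 12.3% for long noncoding RNA genes (19 of 154). Over all genes of at least 50 CPM the thresholds were met by 2.34%. Of the 9 genes left out, 7 were protein-coding and 2 were long noncoding RNA genes. Genes that mirror the rule, at least 2-fold higher in EU nascent with groups apart, numbered 50. They comprised 48 protein-coding genes, 1 long noncoding RNA gene and 1 transcribed pseudogene, with no small RNA gene.

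Together the members held 1.75%, 1.16%, 1.22%, 1.11% and 1.17% of counts in EU nascent replicates 1 to 5, and 4.57%, 3.78%, 4.48%, 3.86% and 4.10% in nuclear replicates 1 to 5. The mean was 1.28% ± 0.262 in EU nascent and 4.16% ± 0.356 in nuclear libraries (SD, n = 5 each). The share in EU nascent was 1.17% ± 0.0425 over the other 4 libraries when replicate 1 was left out. Protein-coding members held 0.695% ± 0.0323 of EU nascent and 1.81% ± 0.188 of nuclear counts. Small nucleolar RNA members held 0.166% ± 0.128 of EU nascent and 0.832% ± 0.236 of nuclear counts, and small nuclear RNA members 0.0715% ± 0.0661 of EU nascent and 0.363% ± 0.119 of nuclear counts (SD, n = 5 each). Without EU nascent replicate 1, the EU nascent share was 0.110% ± 0.0274 for small nucleolar and 0.0422% ± 0.0111 for small nuclear RNA members (SD, n = 4). For the protein-coding members the libraries of one group were close together, whereas the small RNA members of EU nascent replicate 1 held about as much as those of the other 4 libraries combined.

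**Figure D1:**
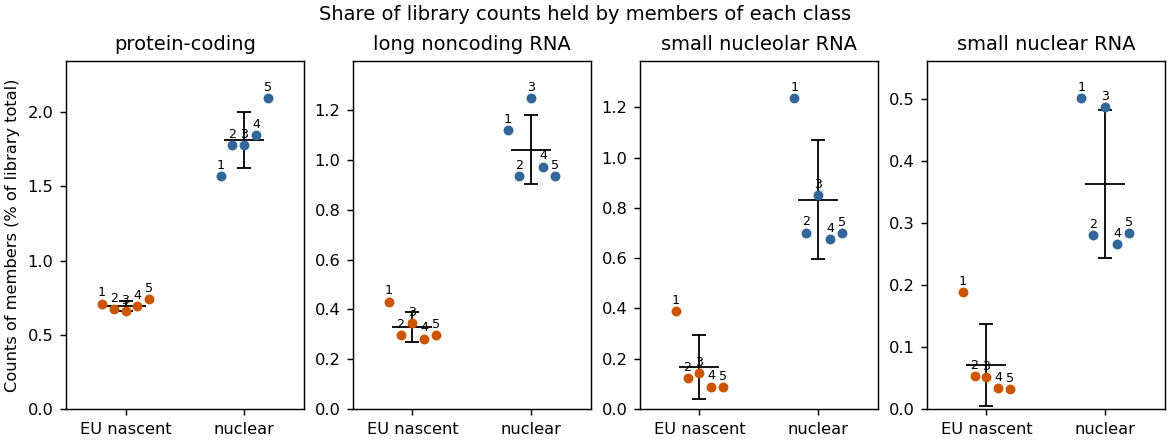
Percent of each library's counts held by the 66 protein-coding, 19 long noncoding, 20 small nucleolar and 11 small nuclear RNA members (y axes, each from 0), with 1 point per library labelled by its replicate number, EU nascent at the left and nuclear at the right, and bars for the mean and SD (n = 5). EU nascent replicate 1 stands above the other EU nascent libraries in the small RNA panels, at 0.391% for small nucleolar and 0.188% for small nuclear RNA members.

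Mean levels of members ran from 0.674 to 804 CPM in EU nascent libraries, with a median of 58.7, and from 70.6 to 2167 CPM in nuclear libraries, with a median of 186. The median R was -1.32, a 2.50-fold difference, and the range was -7.36 to -1.0. A difference of 2-fold to 4-fold was seen for 93 members, of which 62 were protein-coding, and one of 4-fold to 8-fold for 16, of which 9 were small nucleolar and 4 small nuclear RNA genes. The remaining 14 members differed over 8-fold. In 30 members the lowest nuclear library was at least 2-fold above the highest EU nascent library. In edgeR's quasi-likelihood test over all 21053 tested genes with Benjamini-Hochberg adjustment, all 123 members were lower in EU nascent, where 21.1% of tested genes and 34.0% of genes of at least 50 CPM were. Over all tested genes 4439 were lower and 4177 (19.8%) higher, and when libraries were scaled by their totals alone, 2767 were lower and 7392 higher, with the median log2 fold change at 0.19 in place of 0.02. Every member was still called lower with totals alone. The groups were apart in that direction for 7.75% of tested genes and 14.0% of genes of at least 50 CPM. The rule used this contrast, so the count follows from the choice of members.

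**Figure D2:**
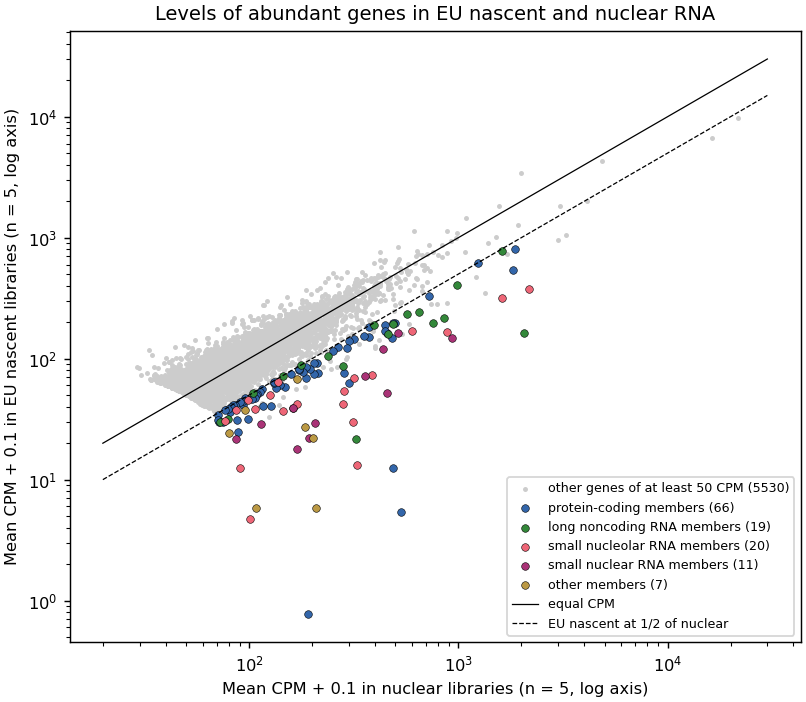
Mean CPM in nuclear libraries (x axis, log) against mean CPM in EU nascent libraries (y axis, log, 0.1 added to both) for the 123 members, coloured by class, and the 5530 other genes of at least 50 CPM in grey. The protein-coding members lie mostly just under the dashed 2-fold line, and the members farthest below it, down to 0.674 CPM in EU nascent, belong to several classes.

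Small nucleolar RNA genes supplied the member with the highest nuclear level. LOC111591081 had 1169, 242, 223, 123 and 111 CPM in EU nascent replicates 1 to 5, against 3673, 1789, 1732, 1717 and 1926 CPM in nuclear replicates 1 to 5. The groups did not overlap, though replicate 1 stood high in both of them. Its R was -2.53, and -3.63 without EU nascent replicate 1. LOC111590386 had 987, 200.2, 199.8, 99.3 and 85.3 CPM in EU nascent replicates 1 to 5, against 2718, 1368, 1349.8, 1314 and 1341 CPM in nuclear replicates 1 to 5. The 2 genes were of nearly equal annotated length (221 and 222 bases), and in both replicate 1 was the highest library of each group. The R of LOC111590386 was -2.36, and -3.46 without EU nascent replicate 1. LOC111591493 had 419, 108, 126, 90.4 and 78.5 CPM in EU nascent replicates 1 to 5, against 1296, 752, 994, 636 and 748 CPM in nuclear replicates 1 to 5. Again replicate 1 was the highest library of each group, and its R of -2.42 became -3.13 without EU nascent replicate 1.

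A pair of small nucleolar RNA genes that follow each other in the annotation was among the 8 members with the lowest R. LOC111591031 had 19.7, 12, 14.7, 7.74 and 11.5 CPM in EU nascent replicates 1 to 5, against 409, 281, 389.9, 292 and 263 CPM in nuclear replicates 1 to 5. LOC111591029 had 7.11, 5.20, 5.58, 3.69 and 1.75 CPM in EU nascent replicates 1 to 5, against 139, 93.3, 112, 85.9 and 75.2 CPM in nuclear replicates 1 to 5. The libraries of the 2 groups were far apart in both genes. R was -4.59 for LOC111591031 and -4.30 for LOC111591029, or -4.77 and -4.48 without EU nascent replicate 1. Over the 20 small nucleolar members the median R was -2.28, from -4.59 to -1.10, and the median was -2.47 without EU nascent replicate 1, while the median annotated length was 120 bases. Among all 247 tested small nucleolar RNA genes, edgeR's test called 106 lower and 42 higher and 99 did not pass, with a median log2 fold change of -0.32 beside 0.02 over all tested genes. Scaled by totals alone, 93 were lower and 62 higher. All 20 members had fractional counts, which can arise where reads are divided between genes, so their separate levels are uncertain, and so had all 39 small nucleolar genes of at least 50 CPM.

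Small nuclear RNA members, of 118 to 197 bases, had R between -3.21 and -1.67, with a median of -2.30, or -3.08 without EU nascent replicate 1. LOC111589487, the highest of them in nuclear libraries, had 369, 99.7, 107, 81.8 and 89.1 CPM in EU nascent replicates 1 to 5, against 1416, 665, 1043, 690.3 and 867 CPM in nuclear replicates 1 to 5. EU nascent replicate 1 was over 3-fold above each other EU nascent library and still below every nuclear library, and R was -2.64, or -3.30 without it. LOC111591272 had 409.8, 135, 110.4, 81.4 and 72.5 CPM in EU nascent replicates 1 to 5, against 543, 430.0, 773, 416 and 416 CPM in nuclear replicates 1 to 5. Here EU nascent replicate 1 nearly reached the lowest nuclear libraries, and R was -1.67, or -2.36 without that replicate. EU nascent replicate 1 was the highest EU nascent library in 11 of 11 small nuclear and 14 of 20 small nucleolar members, against 23 of 66 protein-coding members. The median ratio of that replicate to the mean of the other 4 was 4.51 for small nuclear, 1.73 for small nucleolar and 0.977 for protein-coding members.

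That library decided how many small nuclear RNA genes met the rule. Of the 42 small nuclear RNA genes of at least 50 CPM, 32 had an R of at most -1, and in 21 of these the groups overlapped. Without EU nascent replicate 1, 38 of 41 such genes met the rule (92.7%), against 11 of 42 with it. Small nucleolar members went to 28 of 41 (68.3%), protein-coding members to 74 and long noncoding members to 20, and the total to 168, which held 120 of the 123 members. Among the 75 small nuclear RNA genes in edgeR's test 50 were called lower, and 62 with the replicate number in the model. EU nascent replicates 1 and 3 and nuclear replicates 1 and 3 had the lowest totals of their groups, and small nuclear members were highest in nuclear replicate 1 or 3 in 5 and 6 of 11 genes. The part of depth in these values was not tested.

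**Figure D3:**
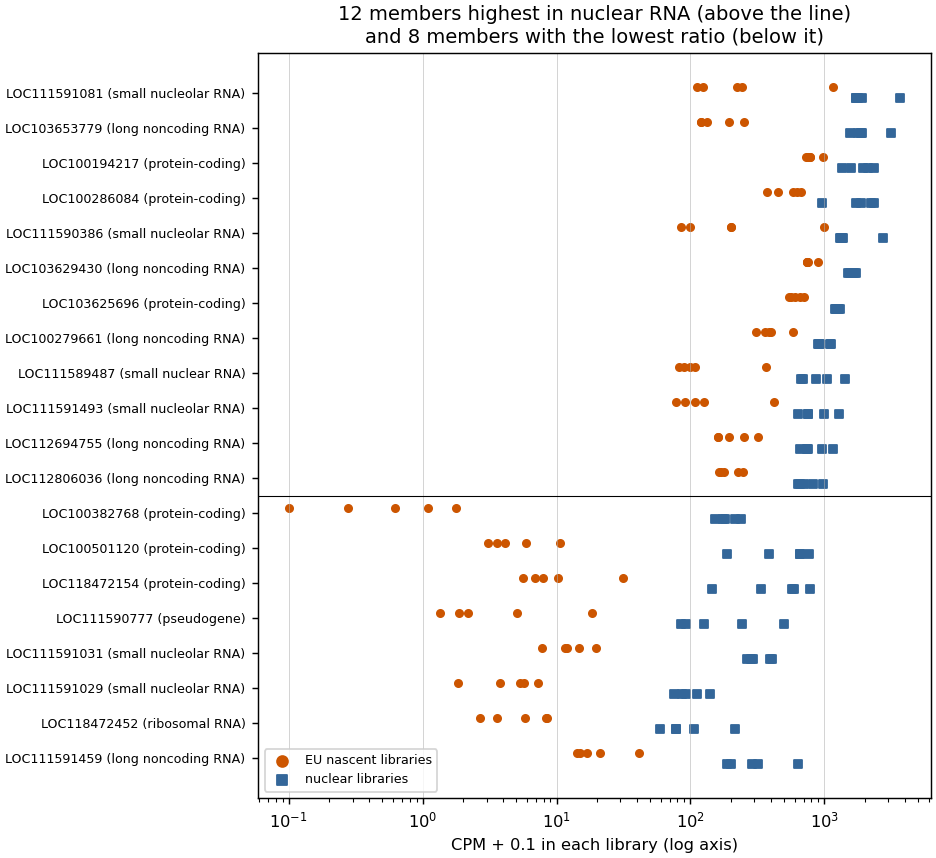
CPM in each library (x axis, log, 0.1 added) for the 12 members with the highest nuclear level, above the line, and the 8 with the lowest R, below it, with EU nascent libraries as circles above the nuclear libraries as squares in each row. The groups do not overlap in any row, by the rule, and a single circle far to the right in the small RNA rows of the upper part is EU nascent replicate 1, for example 1169 CPM for LOC111591081.

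Long noncoding RNA members, whose products have no known protein, numbered 19, with R from -3.88 to -1.0 and a median of -1.30. LOC103653779 had 253, 120.3, 194, 119 and 132 CPM in EU nascent replicates 1 to 5, against 1785, 1549, 3144, 1925 and 1878 CPM in nuclear replicates 1 to 5. Its EU nascent level was 164 ± 58.5 CPM and its nuclear level 2056 ± 625 CPM (SD, n = 5 each), a 12.5-fold difference, and no nuclear library came near the EU nascent ones. The short gene LOC111591459, of 142 bases, is annotated wholly inside LOC103653779 and had 41.2, 14.9, 21.2, 14 and 16.9 CPM in EU nascent replicates 1 to 5, against 320.0, 186, 631, 286 and 200.1 CPM in nuclear replicates 1 to 5. Nuclear replicate 3 was the highest library for both genes. Both had fractional counts, and which reads belong to which of them was not tested.

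Other long noncoding members had smaller differences. LOC103629430 had 890.3, 736, 755, 738 and 739 CPM in EU nascent replicates 1 to 5, against 1716, 1558, 1677, 1618 and 1514 CPM in nuclear replicates 1 to 5, and R was -1.07. Levels within each group lay close together, so the step between the groups was larger than the spread. LOC100279661 had 586, 363, 402, 308 and 384 CPM in EU nascent replicates 1 to 5, against 1099, 894, 1113, 908 and 922 CPM in nuclear replicates 1 to 5. LOC112694755, which had no fractional count, had 320.3, 195, 251, 159 and 160.1 CPM in EU nascent replicates 1 to 5, against 1163, 759, 960.1, 656 and 743 CPM in nuclear replicates 1 to 5. Its R of -1.98 was -2.16 without EU nascent replicate 1, and it overlapped no other annotated gene. LOC112806036 had 225, 169, 247, 162 and 178 CPM in EU nascent replicates 1 to 5, against 827, 659, 969.5, 710.3 and 639 CPM in nuclear replicates 1 to 5, with R of -1.95. Of 731 tested long noncoding RNA genes, edgeR's test called 127 lower and 216 higher, with a median log2 fold change of 0.13, so lower levels were the less frequent direction in the class as a whole.

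Protein-coding members had a median R of -1.17, and 62 of 66 lay within 2-fold to 4-fold. The most abundant was LOC100194217, also listed as RAB15, with 754, 782, 729, 779 and 976 CPM in EU nascent replicates 1 to 5, against 1349, 1591, 2135, 1936 and 2355 CPM in nuclear replicates 1 to 5. Replicate 5 was the highest library of both groups, and the groups did not overlap. LOC100286084 had 371, 581, 453, 626 and 671 CPM in EU nascent replicates 1 to 5, against 966, 1863, 1726, 2236 and 2334 CPM in nuclear replicates 1 to 5. Replicate 1 was the lowest library of both groups here, the opposite of the small RNA members, and R was -1.76. LOC103625696 had 701, 561, 654, 606 and 549 CPM in EU nascent replicates 1 to 5, against 1262, 1197, 1264, 1303 and 1211 CPM in nuclear replicates 1 to 5, with R of -1.02 and little spread in either group. Protein-coding members were highest in nuclear replicate 5 in 35 of 66 genes, while nuclear replicates 1 and 3 together were highest for 18 of 20 small nucleolar members.

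A gene name beyond the locus number was listed for 13 of the members. CSD4, a copper-zinc superoxide dismutase gene (LOC100285240), had 60.6, 68.3, 68.7, 81.1 and 101 CPM in EU nascent replicates 1 to 5, against 114, 190.3, 234, 237 and 291 CPM in nuclear replicates 1 to 5, with R of -1.48. The superoxide dismutase and other oxidative stress genes did not move together: edgeR's test called 5 of 18 lower and 6 higher. Over all tested genes 21.1% were lower and 19.8% higher, shares that also stand beside the list counts below. The list counts include the members, which were chosen on this contrast. Of the other superoxide dismutase genes, sod3 had a log2 fold change of -1.01 (adjusted p = 4.70e-06 in edgeR's test). The genes sod2 (-0.77) and LOC100193398 (-0.39) were lower too, while sod4 (0.44) and LOC103639134 (0.61) were higher. For fsd1 and LOC100136885 the test was not passed. The gene psat1 (LOC100284817), named for phosphoserine aminotransferase of serine synthesis, had 50.2, 38.8, 34.7, 40.1 and 38 CPM in EU nascent replicates 1 to 5, against 116, 123, 113, 127 and 156 CPM in nuclear replicates 1 to 5. Its highest EU nascent library was far below its lowest nuclear library, and R was -1.64. Of 10 tested amino acid synthesis genes, 3 were lower and 1 was higher, or 2 lower and 1 higher with totals alone.

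A pair of members takes part in making benzoxazinoids, the defence compounds of young maize. Bx7 (LOC100147731), an O-methyltransferase gene of the pathway, had 62.7, 40.0, 26.9, 36.4 and 40.5 CPM in EU nascent replicates 1 to 5, against 89.9, 81.1, 78.7, 97.4 and 118 CPM in nuclear replicates 1 to 5. The glucosyltransferase gene bx9 (LOC100274317) had 66.1, 46.1, 50.5, 44 and 59 CPM in EU nascent replicates 1 to 5, against 75.6, 119.8, 122, 111 and 136 CPM in nuclear replicates 1 to 5. In bx9 the highest EU nascent library and the lowest nuclear library, both replicate 1, were close to each other. In edgeR's test 4 of the 8 genes of the list were lower (50%, against 21.1% of all tested genes) and 1 was higher. The median log2 fold change of the list was -0.58. Bx7 and bx9, chosen as members on this contrast, are among the 4, so this share and the median partly follow from that choice. The other lower ones were BX5 (log2 fold change -0.89) and bx8 (-0.64), and igl1, an indole-glycerol phosphate lyase gene, was the higher one (0.26). With totals alone 4 of the genes were lower and 2 higher, with a median of -0.41.

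The chaperone gene hsp70-4 (LOC103650526), whose HSP70-type product helps proteins fold, had 173, 165, 174, 202 and 200.0 CPM in EU nascent replicates 1 to 5, against 257, 379, 391, 398 and 445 CPM in nuclear replicates 1 to 5. Its R was -1.03, and 4 small nucleolar RNA genes are annotated inside it, with R between -0.74 and 0.64. Among 34 chaperone and heat shock genes in the test, 15 were called lower and 4 higher. Their median log2 fold change was -0.14, and 0.03 when libraries were scaled by totals alone (11 lower and 7 higher). The acidic ribosomal protein gene rpp3 (LOC542339), for a plant-specific protein of the ribosomal stalk, had 92, 68.3, 77.4, 79.1 and 85.1 CPM in EU nascent replicates 1 to 5, against 144, 163, 187, 168 and 208 CPM in nuclear replicates 1 to 5. It was the single member among 36 tested cytosolic ribosomal protein genes, of which 9 were lower, 3 were higher and 24 did not pass, or 8 lower and 8 higher with totals alone. The gene listed as GRP (LOC542562) had 145, 155, 132, 155 and 181 CPM in EU nascent replicates 1 to 5, against 277, 329, 342, 352 and 464 CPM in nuclear replicates 1 to 5. Of the 10 tested genes of its list, glycine-rich and RNA-binding proteins, 3 were lower and 2 were higher, or 3 lower and 4 higher with totals alone.

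The list of transcription factor families held 2 members among its 47 genes of at least 50 CPM (4.26%), and 1 more gene met the thresholds and was left out, beside members at 2.18% of all genes of that level. AUX3 (LOC100193444), which shares its name with auxin response genes, had 149, 149, 126, 128 and 143 CPM in EU nascent replicates 1 to 5, against 317, 336, 248, 294 and 312 CPM in nuclear replicates 1 to 5. AUX17 (LOC100384587) had 63.1, 45.6, 38.9, 36.1 and 49.5 CPM in EU nascent replicates 1 to 5, against 96.7, 93.7, 109, 80.2 and 106 CPM in nuclear replicates 1 to 5. The libraries of AUX3 were farther apart than those of AUX17, with R of -1.12 for AUX3 and -1.05 for AUX17. Across 188 tested genes of transcription factor families, 37 were lower and 42 higher (29 and 69 with totals alone), with a median log2 fold change of 0.04. TIFY30 (LOC100383759), a gene of the TIFY family that includes jasmonate signalling repressors, had 44.7, 52.9, 39.7, 49.2 and 49 CPM in EU nascent replicates 1 to 5, against 106, 112, 103, 107 and 105 CPM in nuclear replicates 1 to 5, and GLK11 (LOC100502221) had R of -1.04. The other 9 lists of names held no member among their 62 genes of at least 50 CPM, and the ubiquitin and the lipid transfer lists had no gene of that level. These lists covered glutathione transferases, translation factors, histones, tubulin and actin, aquaporins, ubiquitin, glycolysis, lipid transfer and cell wall genes, though 2 glutathione transferase genes and 1 translation factor gene met the thresholds and were left out by the rule.

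A set of short protein-coding genes on chromosome 2 had similar lengths and R. LOC103646973, LOC103646979, LOC103646981 and al1 (LOC101027139), of 830, 831, 821 and 835 bases, were chosen for this after their values were seen. Their mean levels were 92.8, 92.7, 82.2 and 58.7 CPM in EU nascent and 205, 210, 196 and 148 CPM in nuclear libraries. Their R lay between -1.33 and -1.14, and EU nascent replicate 1 and nuclear replicate 1 were the lowest libraries of their groups for all 4. al1 had the lowest level of the 4 in both groups. The last 3 of these genes lie within 3 places of each other in the gene order. All 4 had fractional counts, so their separate levels are uncertain. Whether they share reads with each other was not tested.

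The 3 protein-coding genes with the lowest R each overlapped another member in the annotation. LOC100382768 had 1.67, 0.520, 0, 0.176 and 1.00 CPM in EU nascent replicates 1 to 5, against 174, 153, 240.2, 213 and 179.6 CPM in nuclear replicates 1 to 5. Its R of -7.36 was the lowest of all members, and it rested on 12 counts over the 5 EU nascent libraries against 6558 over the 5 nuclear libraries. The gene lies wholly inside the long noncoding RNA gene LOC109939992, which had 30.1 CPM in EU nascent and 72.4 CPM in nuclear libraries and an R of -1.25. LOC100501120 had 10.5, 3.47, 5.79, 2.99 and 4.00 CPM in EU nascent replicates 1 to 5, against 762, 659, 188, 389 and 656 CPM in nuclear replicates 1 to 5. It shares 83 bases with the small nucleolar RNA gene LOC111591453, which had R of -2.20. LOC118472154 had 31.4, 10.2, 7.86, 6.86 and 5.50 CPM in EU nascent replicates 1 to 5, against 781, 575, 146, 336 and 596 CPM in nuclear replicates 1 to 5. Its R was -5.24, and -5.91 without EU nascent replicate 1. It lies wholly inside LOC100192796, a long noncoding RNA gene with R of -1.01. LOC100501120 and LOC118472154 are annotated on chromosomes 4 and 6 and in both the nuclear level was highest in replicate 1 and lowest in replicate 3, with replicate 4 next lowest. None of the 3 genes had a fractional count.

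Overlap with another annotated gene was found for 27 of 123 members (22%), against 12.1% of genes of at least 50 CPM and 5 of the 50 genes higher in EU nascent. For protein-coding members it was 12 of 66 (18.2%), against 10.9% of abundant protein-coding genes, and for long noncoding members 8 of 19 (42.1%), against 32.5%. There were 7 pairs of members that overlapped each other. In 1 pair, the long noncoding RNA gene LOC103654231 and the small nuclear RNA gene LOC111591491, the counts were the same in all 10 libraries, so that both entries may report 1 set of reads: 104, 26.7, 29.2, 20.1 and 16 CPM in EU nascent replicates 1 to 5, against 216, 123, 211, 126 and 131 CPM in nuclear replicates 1 to 5. Small nuclear or nucleolar RNA genes lay over 11 members of other classes. LOC103643697 had 71.9 CPM in EU nascent and 145 CPM in nuclear libraries, and LOC111590746 inside it 63.7 and 137 CPM. LOC103629159 had 63.2 and 300 CPM, and LOC111589609 inside it 42.2 and 281 CPM. LOC100383644 had 163 and 456 CPM, and LOC111589360 123 and 399 CPM. In others the small RNA gene was far lower, as LOC111591062 (9.69 CPM in nuclear libraries) inside LOC103647713 (280 CPM). Whether such members have reads of their own was not tested. How the reads of overlapping genes were assigned, and whether by strand, is not given in the sources used here although the library kit marks strand, and its part in the differences was not tested.

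Fractional counts were also frequent. They occurred for 82 of 123 members (66.7%), against 38.2% of genes of at least 50 CPM and 24.0% of the genes higher in EU nascent. By class it was 53.0% of protein-coding members against 36.5% of abundant protein-coding genes, and 78.9% against 53.2% for long noncoding RNA genes. For small nuclear RNA genes it was 63.6% against 64.3%, and for small nucleolar RNA genes 100% in both. Part of the difference over all members thus goes with their mix of classes. Members with fractional counts held 76.9% of all member counts in EU nascent and 78.0% in nuclear libraries. The 41 members without any fractional count comprised 31 protein-coding genes, 4 long noncoding RNA genes, 4 small nuclear RNA genes and no small nucleolar RNA gene among the 4 large classes.

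The ribosomal RNA gene had an R of -4.12, and the 4 pseudogenes had R of -5.08, -3.18, -2.73 and -1.33. LOC111590777, a pseudogene of 185 bases, had 18.4, 2.08, 4.96, 1.76 and 1.25 CPM in EU nascent replicates 1 to 5, against 499, 85.5, 242, 125 and 93.2 CPM in nuclear replicates 1 to 5. The nuclear libraries differed widely among themselves, with replicates 1 and 3 highest, and the groups still did not overlap. Its R was -6.12 without EU nascent replicate 1. LOC111591082 had 65.2, 16, 13, 7.65 and 7.13 CPM in EU nascent replicates 1 to 5, against 263, 162, 256, 159 and 168 CPM in nuclear replicates 1 to 5, with R of -3.18, or -4.14 without EU nascent replicate 1. The ribosomal RNA gene LOC118472452 had 8.36, 2.60, 8.27, 3.52 and 5.75 CPM in EU nascent replicates 1 to 5, against 107, 78.5, 77.5, 216 and 59.2 CPM in nuclear replicates 1 to 5. It was the single ribosomal RNA gene of at least 50 CPM, and nuclear replicate 4, the deepest library, was about 2-fold above the next. The 2 transcribed pseudogenes had moderate differences, with R of -1.32 for LOC100502069 and -1.72 for LOC100384239.

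Protein-coding and long noncoding members were short for their class, while small nucleolar and small nuclear members were as long as their class. Length here is the span from start to end of the annotated gene, with any introns, and not the length of the finished RNA. The median annotated length of protein-coding members was 2728 bases, against 6120 bases for abundant protein-coding genes, and that of long noncoding members was 2208 bases, against 4746. The genes higher in EU nascent were also short, with a median of 3238 bases. Of the abundant protein-coding genes up to 1 kb long, 10 of 60 were members (16.7%) and 3 were at least 2-fold higher in EU nascent (5.00%). From 1 to 2 kb these were 16 and 9 of 243 genes, from 2 to 4 kb 22 and 22 of 1021, from 4 to 8 kb 9 and 7 of 1946, and above 8 kb 9 and 7 of 1935. The median R over all abundant protein-coding genes was -0.31 up to 1 kb, 0.03 from 1 to 2 kb and 0.09 to 0.14 above that. Across the 66 protein-coding members, which were chosen on R, length and R had a Spearman correlation of 0.45. Across the 5205 abundant protein-coding genes, not chosen on R, it was -0.01. Both are descriptions across genes that share the same libraries, and the value for the members cannot be separated from their choice on R.

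**Figure D4:**
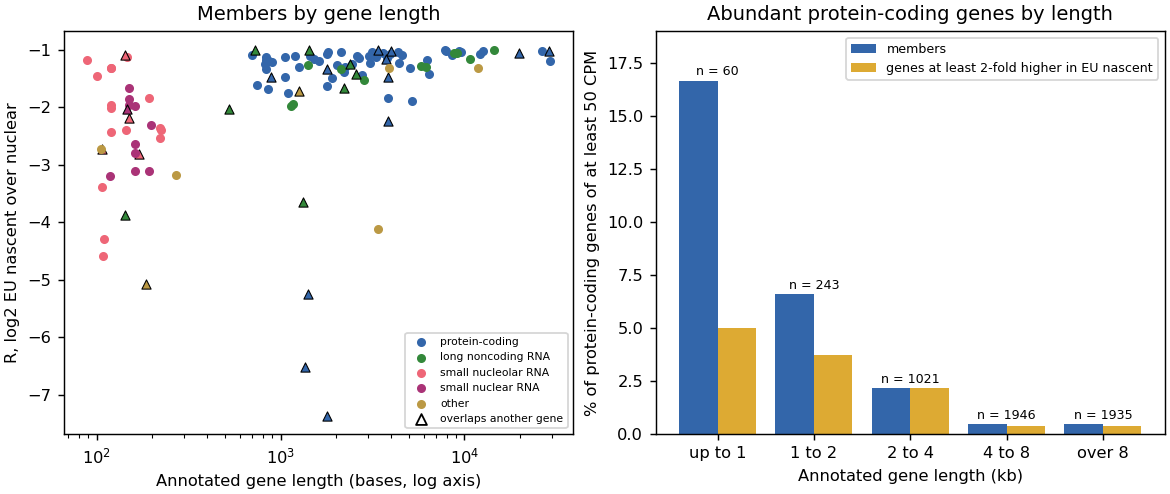
At the left, annotated gene length (x axis, log) against R (y axis) for the 123 members, coloured by class, with triangles for the 27 that overlap another gene. At the right, percent of abundant protein-coding genes in each length range that were members or were at least 2-fold higher in EU nascent (y axis from 0, n genes above the bars), which was 16.7% and 5.00% up to 1 kb and under 1% for both above 4 kb.

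Per length of annotated gene, with any introns included, small RNA members were the most abundant. Small nucleolar members had a median of 379 CPM per kb in EU nascent (325 without replicate 1) and 1576 CPM per kb in nuclear libraries. Small nuclear members had 266 CPM per kb in EU nascent (156 without replicate 1) and 1435 CPM per kb in nuclear libraries. Long noncoding members had 74.7 CPM per kb in EU nascent (45.9 without replicate 1) and 183 CPM per kb in nuclear libraries, and protein-coding members 23.9 CPM per kb in EU nascent and 72.4 CPM per kb in nuclear libraries. The median coefficient of variation for small nuclear members was 93.2% in EU nascent and 38.3% in nuclear libraries, and without replicate 1 it was 33.5% in EU nascent. For small nucleolar members it was 33.8% in EU nascent, or 25.4% without replicate 1, and 25% in nuclear libraries. For protein-coding members it was 12.8% in EU nascent, or 10.2% without replicate 1, and 17.3% in nuclear libraries.

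The nearest genes to the R threshold differed little from each other. Just inside it were LOC103645716, LOC100217187 and LOC103643697, with R from -1.01 to -1.0 after rounding. LOC103645716 had 147, 73.1, 53.4, 95 and 73.5 CPM in EU nascent replicates 1 to 5, against 225, 159, 156, 184 and 164 CPM in nuclear replicates 1 to 5. Its highest EU nascent and lowest nuclear library were close, and without EU nascent replicate 1 its R was -1.26. Just outside it was LOC100191146, with 90.6 CPM in EU nascent and 181 CPM in nuclear libraries and an R of -0.997. LOC109942217 had 246 CPM in EU nascent and 491 CPM in nuclear libraries, and LOC100382519 had 51.2 CPM in EU nascent and 102 CPM in nuclear libraries, both with R of -0.99.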

How the data were processed

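Per the labels, newly made (EU nascent) and total nuclear RNA of maize root tips were sequenced in 5 biological replicates each, after ribosomal RNA depletion, with a kit that marks strand and adds molecular identifiers. Tools listed in the submitters' processing notes are HTSeq, deepTools, the aligner STAR (version 2.7.10b), Trimmomatic (versions 0.36 and 0.39), UMI-tools and also SAMtools. The role of each, the genome build, the annotation and the strand setting of the counting are not given in the sources used here. The values deposited by the authors are expected counts per gene, estimated counts that are fractional for some genes, as when reads are divided between genes; how they were divided is not given in the sources used here. CPM are these counts divided by the library total. Names, classes, lengths and overlaps came from the RefSeq gene table of Zm-B73-REFERENCE-NAM-5.0, which matched 48127 of 48174 gene IDs. No genome or sequence table was used, and no sequence is shown.

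Counts were rounded to whole numbers and tested with edgeR 4.0.16 in R 4.3.3 (TMM scaling, filterByExpr by group, quasi-likelihood F test, Benjamini-Hochberg adjusted p under 0.05 over 21053 genes), with DESeq2 1.42.0 and limma-voom (limma 3.58.1) as alternatives. On simulated counts over 20896 genes the test called 70% of 100 genes changed 1.5-fold and 96% of 100 genes changed 2-fold. It called 0.0336% of unchanged genes there. Whether these percentages hold for the sequenced libraries was not tested. In those libraries 21.1% of tested genes were called lower and 19.8% higher. The median coefficient of variation in EU nascent was 12.8% for protein-coding and 93.2% for small nuclear RNA members. The labels give replicate numbers and do not state a pairing. Over the tested genes, deviations from the group means correlated at 0.158 to 0.222 between same-numbered EU nascent and nuclear libraries. For other numbers the correlation was at most 0.116. Over the members the ranges overlapped, at 0.160 to 0.781 for the same replicate number and -0.741 to 0.657 for other numbers. The fit with the number as a block is given in the closing section.

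The members, the gene lists and the tests were chosen with earlier results of these data known. The text names the 12 members of highest mean nuclear CPM, the 8 of lowest R, the 2 highest of each list or class with 2 or more members, and the 3 genes on each side of the R threshold. Members with a gene name, members that overlap another gene and the set on chromosome 2 were added after their values were seen. Lists were matched on the start of gene names, so a list may miss genes without a name. A count was taken as whole within 1e-06. Genes with fractional counts or with an overlapping gene have uncertain levels. Genes of low depth are limited most: totals ran from 1323450 to 20397606 counts.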

Additional observations from a re-analysis of the deposited data

Results flagged for a closer look

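In groups of 5 libraries, a library was singled out when its gap to the nearest of the others exceeded 0.71 of the range of the group, Dixon's critical value, which chance passes in about 1 in 20 groups. Over the 123 members this happened for 32 in EU nascent (26%) and for 15 in nuclear libraries (12.2%). Of the 32, 27 had EU nascent replicate 1 as the high library, among them all 11 small nuclear RNA members and 5 small nucleolar RNA members. Nuclear replicate 1 was the high library for 6 members and nuclear replicate 3 for 5. The members share the same libraries, so their flags are not independent and cannot be weighed against 1 in 20. No share over all genes of at least 50 CPM is given here, so the flags describe libraries and not a trait of the members.

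EU nascent replicate 1 stood above the other EU nascent libraries in the percent of counts held by all members, at 1.75%. It did so for small nucleolar RNA members at 0.391%, for small nuclear RNA members at 0.188% and for both together at 0.579%. The same library was singled out as high for the small nucleolar RNA genes LOC111591081 (1169 CPM), LOC111590386 (987 CPM) and LOC111591493 (419 CPM), and for the small nuclear RNA genes LOC111589487 (369 CPM) and LOC111591272 (409.8 CPM). It was also high for the pseudogenes LOC111590777 (18.4 CPM) and LOC111591082 (65.2 CPM), for the long noncoding RNA genes LOC103629430 (890.3 CPM) and LOC111591459 (41.2 CPM), and for the protein-coding gene LOC118472154 (31.4 CPM).

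EU nascent replicate 5 was singled out as high for LOC100194217, at 976 CPM. Nuclear replicate 1 was high for LOC111591081, at 3673 CPM, and for LOC111590386, at 2718 CPM. Nuclear replicate 3 was high for LOC103653779, at 3144 CPM. Nuclear replicate 1 had the lowest total of all libraries and EU nascent replicate 1 the lowest of its group. The part of depth in these values was not tested.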

How the results depend on the processing

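All 123 members, chosen on this difference, were called lower in EU nascent in each of the 15 alternative fits. With library totals alone in place of TMM, 2767 genes were lower and 7392 higher, in place of 4439 and 4177. DESeq2 called 4477 lower and 3802 higher, limma-voom 4851 and 4555, and no filter on low counts 4960 and 3904. Adding the replicate block gave 5347 lower and 5102 higher genes, and no call of a member changed. Leaving out 1 library at a time gave 3901 to 4628 lower and 3401 to 4641 higher genes. The rule gave 185 members with TMM-scaled libraries, 75 at a floor of 100 CPM, 164 at 25 CPM, 186 at an R of at most -0.8, 77 at an R of at most -1.2 and 41 without genes of fractional counts. It gave 111 to 168 members without 1 library at a time. The members held 1.17% to 1.32% of EU nascent and 4.05% to 4.25% of nuclear counts without 1 library, and 0.291% of EU nascent and 0.911% of nuclear counts without members of fractional counts. Without the 5 members of highest nuclear level they held 3.20% of nuclear counts. Counts by class without 1 library, chosen after seeing the data, ran from 10 to 38 for small nuclear RNA genes, with 38 without EU nascent replicate 1. Also chosen then, the mark of fractional counts without nuclear replicate 4 held for 73 members (59.3%), against 28.2% of genes of at least 50 CPM.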
